A study of Homo sapiens with 12 samples.

Results

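ETS transcription factors are a family defined by a shared winged-helix DNA-binding domain that recognises a GGAA core, so that many members can occupy the same site. The family holds activators (ETS1, ETS2, ELF1, ELF2, GABPA), the ternary complex factors that bind beside serum response factor (ELK1, ELK3, ELK4), and repressors (ERF, ETV6). FLI1 belongs to the same family, and the fusion oncoprotein EWS-FLI1 of Ewing sarcoma keeps the FLI1 DNA-binding domain, so endogenous ETS factors are potential competitors or partners at its sites. ARID1A is a subunit of the BAF form of the SWI/SNF chromatin remodelling complex.

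The 10 ETS genes described here are ETS1, ETS2, ELF1, ELF2, ELK1, ELK3, ELK4, GABPA, ERF and ETV6, chosen by name out of 60645 gene names in the count tables. All 10 were listed in every library, and all 10 passed the filter on low counts that left 20377 genes to test. RNA was measured and binding to GGAA sites was not, so what follows concerns the abundance of these transcripts and not the occupancy of their sites.

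The cells were HEK-293T, a human embryonic kidney line, made ARID1A-knockout (a line named 12KO in the series), and all 6 groups share that knockout. Each group had 2 polyA RNA-seq libraries and combined one of 3 ARID1A states with one of 2 vectors. The states were an empty vector in place of ARID1A (no ARID1A below), overexpressed wild-type ARID1A (WT), and overexpressed ARID1A without the segment named IDR1b (ΔIDR1b). The second vector was empty or carried EWS-FLI1, for which the labels give 2 µg of plasmid. Growth for 48 h applies to all 12 libraries. The protocol text names the EWS-FLI1 plasmid for every sample, those with empty vector included, and the groups here follow the sample titles. The design is therefore overexpression in 1 knockout line, and the text used here names no clone other than 12KO and no level of protein. Libraries are numbered as repeats, with no statement that they came from separate cultures, so p-values measure the spread between these libraries, which may be technical. In bulk RNA, fewer cells with a transcript and less transcript per cell cannot be told apart.

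Libraries held 11702251 to 14445379 counts. FLI1 had 0 to 2 counts in each of the 6 empty-vector libraries. With EWS-FLI1 it reached 1759 ± 100 CPM (counts per 1000000 counts, mean ± SD, n = 2) without ARID1A, 3568 ± 151 with WT and 1897 ± 13.2 with ΔIDR1b, with both WT libraries (3675 and 3462) above the other 4 (1688 to 1906). ARID1A RNA was 156 and 160 CPM in the 2 groups without introduced ARID1A (empty vector and EWS-FLI1), 2056 and 2067 with WT, and 2787 and 2615 with ΔIDR1b. RNA counted at the knocked-out gene does not check the loss of protein. Of 6 genes listed as HEK-293T markers, 5 were above 1 CPM in every library and NEFM, a neuronal gene, was below it in all of them. All 3 endothelial markers were below 1 CPM in every library. Of 3 fibroblast markers, 2 were above 1 CPM in every library (COL1A1 at 73.0 to 105 and COL3A1 at 11.1 to 26.3). DCN had 0 to 1.13 CPM. Of 2 Ewing sarcoma markers, NKX2-2 had 2.31 to 4.95 CPM and NR0B1 at most 0.226. The 2 libraries of WT with EWS-FLI1 were the least alike of any group, with a chi-square of 12.1 per degree of freedom between them against 3.02 to 6.13 in the others.

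The ETS genes spanned a wide range of abundance. Per kilobase of exonic length, ELK1 had the highest mean level over the 12 libraries at 26.9 CPM per kb, followed by the repressor ERF at 20.6 and GABPA, the DNA-binding subunit of the GA-binding protein, at 13.0. A middle set lay close together: ELK4 at 7.48, ELF1 at 7.02, ELK3 at 6.17, ETS2 at 6.01 and ELF2 at 4.50 CPM per kb. The repressor ETV6 followed at 1.22, and ETS1, the founding member of the family, was lowest at 0.284 CPM per kb. Between neighbours in this order, the ranges over all 12 libraries did not overlap from ERF to GABPA, from ELF2 to ETV6 and from ETV6 to ETS1. All other neighbours overlapped over the 12 libraries. Within each of the 6 groups, however, ELK1 lay above ERF and GABPA above ELK4 with no overlap. ELK4, ELF1, ELK3 and ETS2 have no fixed order across the groups. ELK1 stood at percentile 92.4 of the tested genes by this measure and ETS1 at percentile 9.55.

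**Figure D1:**
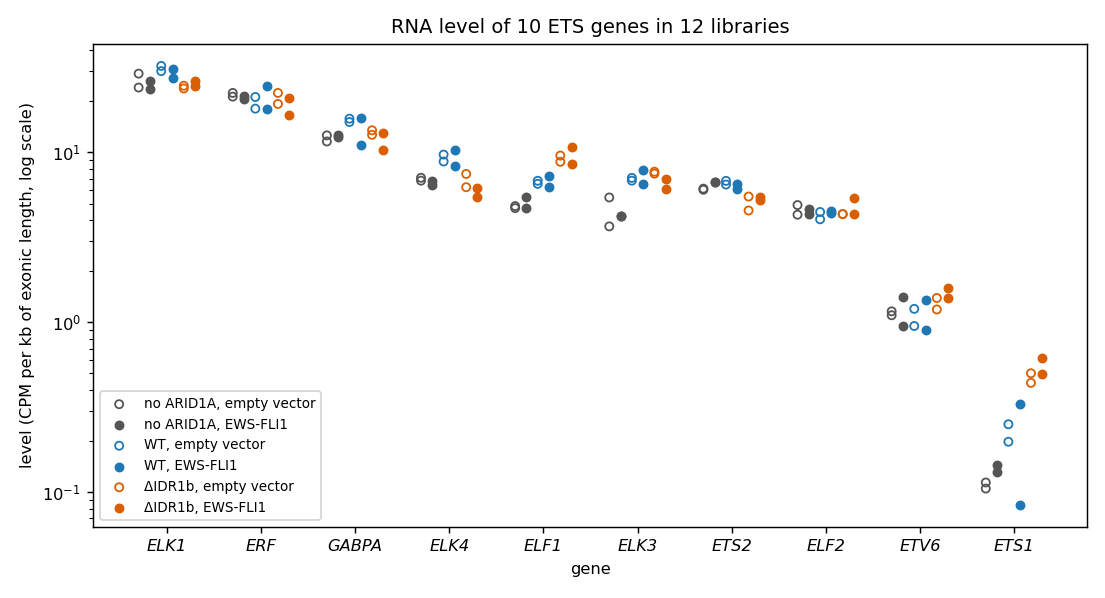
Level of each ETS gene in CPM per kb of exonic length on a log scale, 1 point per library, with colour for the ARID1A state and filled points for EWS-FLI1. Levels fall from 26.9 CPM per kb on average for ELK1 to 0.284 for ETS1, and only ETS1 spreads over a large part of the axis (0.0842 to 0.613).

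Summed over the 10 genes, the level was 88.7 ± 2.85 CPM per kb without ARID1A, 101 ± 3.67 with WT and 93.0 ± 1.41 with ΔIDR1b in the empty-vector groups (SD, n = 2). With EWS-FLI1 the sums were 86.9 ± 0.453, 99.3 ± 1.35 and 90.1 ± 1.42. The 4 WT libraries lay between 98.4 and 104, above all 8 others, which lay between 86.5 and 94.0. In the 6 EWS-FLI1 libraries the FLI1 reads alone came to between 210 and 458 CPM per kb of the whole FLI1 gene. That value understates the fusion, which carries only a part of FLI1, but it already exceeded the sum of the 10 endogenous genes in each library. Within the sum, ELK1, ERF and GABPA together supplied most of the level in every group. ELF1 made up a mean of 5.38% of the sum without ARID1A and 9.89% with ΔIDR1b in the empty-vector groups, and 5.84% and 10.7% with EWS-FLI1.

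The genes lie apart in the genome (GRCh38, positions from the annotation in the count tables). ETS1 is at chr11:128458761-128587558, next to FLI1 at chr11:128686535-128813267, and ELK4 is at chr1:205597556-205632011. ELF1 is at chr13:40931924-41061440, ELK3 at chr12:96194375-96269824 and ETV6 at chr12:11649674-11895377. ETS2 at chr21:38805183-38824955 and GABPA at chr21:25734570-25772460 share a chromosome. ELF2 is at chr4:139028112-139177218, ELK1 at chrX:47635521-47650604 and ERF at chr19:42247569-42255128. Counting used no strand and left unassigned any fragment that overlaps more than one gene, and 12.1% of the exonic bases of GABPA are also exonic in ATP5PF. The corresponding shares were 5.54% for ERF, 4.5% for ELK3, 3.73% for ELK4 (MFSD4A and an unnamed gene) and 2.25% for ETS2, and 0 for the others.

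Because these factors recognise GGAA, the 250 bases before their own RefSeq transcription starts were searched for that core on both strands (GRCh38.p14). RefSeq windows were matched for 9 of the 10 genes, with 16 windows in all. GGAA or its complement TTCC was in 14 of the 16, against 92.7% of 35116 such windows of all genes. The longer CCGGAA, the preferred form of most ETS domains, was in 2 of the 16, one of ELK4 and one of GABPA, against 14.5% of all windows. Both of these also hold CCGGAAGT, found in 3.42% of all windows. GGAAGGAA, the tandem form that EWS-FLI1 is known to bind in longer repeats, was in 1 of the 16, at an internal start of ELF1, against 3.06% of all windows. The motifs are nested, so each longer match is also counted as GGAA. The windows printed here are those of the 2 genes with CCGGAAGT, and the most upstream ones of ELF1 and ELK3, which rose in both ARID1A states below. Each reads 5′ to 3′ on the strand of its gene with GGAA and TTCC in capitals.
ELK4 (chr1:205632012-205632261, minus strand): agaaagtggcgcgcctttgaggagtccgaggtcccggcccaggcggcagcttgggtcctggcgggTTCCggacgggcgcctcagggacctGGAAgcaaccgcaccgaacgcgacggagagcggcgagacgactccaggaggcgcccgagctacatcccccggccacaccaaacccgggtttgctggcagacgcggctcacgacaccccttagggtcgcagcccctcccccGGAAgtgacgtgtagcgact
GABPA (chr21:25734722-25734971, plus strand): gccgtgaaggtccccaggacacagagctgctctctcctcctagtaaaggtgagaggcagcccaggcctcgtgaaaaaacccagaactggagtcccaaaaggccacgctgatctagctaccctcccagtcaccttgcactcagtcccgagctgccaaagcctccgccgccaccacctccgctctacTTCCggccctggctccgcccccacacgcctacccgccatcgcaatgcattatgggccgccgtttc
ELF1 (chr13:41061387-41061636, minus strand): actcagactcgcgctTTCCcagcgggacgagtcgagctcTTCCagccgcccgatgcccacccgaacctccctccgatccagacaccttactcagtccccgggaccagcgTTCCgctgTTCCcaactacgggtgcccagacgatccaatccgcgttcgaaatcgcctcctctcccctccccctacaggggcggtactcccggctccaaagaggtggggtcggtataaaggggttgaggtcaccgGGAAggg
ELK3 (chr12:96194125-96194374, plus strand): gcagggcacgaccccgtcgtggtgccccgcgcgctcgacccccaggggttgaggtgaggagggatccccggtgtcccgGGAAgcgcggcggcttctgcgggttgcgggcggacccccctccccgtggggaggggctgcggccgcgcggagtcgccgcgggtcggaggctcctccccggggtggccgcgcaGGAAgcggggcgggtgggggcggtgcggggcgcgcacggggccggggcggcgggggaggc

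The ELK4 window has 3 cores, of which the last lies in a CCGGAAGT just before the start, and GABPA has a single core, written as its complement. ELF1 has 5 cores and ELK3 has 2, and none of them is part of a CCGGAA. A match describes the letters only, and binding was not measured.

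The first question was whether EWS-FLI1 changed the RNA of endogenous ETS genes. None of the 10 passed the test. Averaged over the 3 ARID1A states, 0 of 10 had an adjusted p under 0.05 (edgeR quasi-likelihood, Benjamini-Hochberg over all tested genes), where 0.466% of all tested genes did. No gene of the 10 reached an unadjusted p under 0.05 either, where 7.90% of all tested genes did, and the lowest was 0.164. DESeq2 likewise called 0 of the 10.

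The estimates were small in both directions. The average log2 fold changes ran from -0.11 (SE 0.08) for GABPA to 0.15 (SE 0.29) for ETS1, and 5 of the 10 lay above 0. For ELK1 the 95% confidence interval was -0.17 to 0.09, and for ERF -0.19 to 0.13. Those of ELK3 and ELK4 were -0.28 to 0.09 and -0.24 to 0.04, and that of GABPA -0.26 to 0.05. None of these 5 intervals reached above 0.13. ELF1 had -0.11 to 0.23, ELF2 -0.09 to 0.23 and ETS2 -0.11 to 0.22. These 8 intervals together ran from -0.28 to 0.23, so larger average changes of these genes lie outside them. ETV6 at -0.16 to 0.39 and ETS1 at -0.45 to 0.75 were less well bounded, and ETS1 had only 8 to 63 counts per library.

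Within each state the result was the same count. Without ARID1A, 0 of 10 passed (0.0442% of all tested genes did), with WT 0 of 10 (0.221%), and with ΔIDR1b 0 of 10 (0.172%), and none had an unadjusted p under 0.05 (3.16%, 6.53% and 5.45% of all tested genes in turn). The nearest was ELK4 in ΔIDR1b cells, at 76.0 and 91.1 CPM with empty vector and 75.6 and 66.2 with EWS-FLI1. Both EWS-FLI1 libraries lay below both empty-vector libraries, by a log2 fold change of -0.24 (95% interval -0.48 to 0.01, unadjusted p = 0.0567). The EWS-FLI1 effect was also compared between states by interaction terms. No term passed for any of the 10 (WT against no ARID1A 0.0245% of all genes, ΔIDR1b against no ARID1A 0.0196%, ΔIDR1b against WT 0%), with none at an unadjusted p under 0.05 (4.34%, 3.45% and 3.64%). The intervals of these differences reached from -2.01 to 1.70 for ETS1 and are wider than those of the averages. FLI1 RNA was itself higher in the WT libraries with EWS-FLI1, and its part in these comparisons was not tested.

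One call appeared when a library was left out. GABPA in WT cells had 90.7 and 86.5 CPM with empty vector, and 91.5 and 63.1 with EWS-FLI1. The last library lies far below the other three, and without its partner GABPA was called lower with EWS-FLI1 (log2 fold change -0.49, adjusted p = 0.0394), while without the low library the estimate was 0.05.

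**Figure D2:**
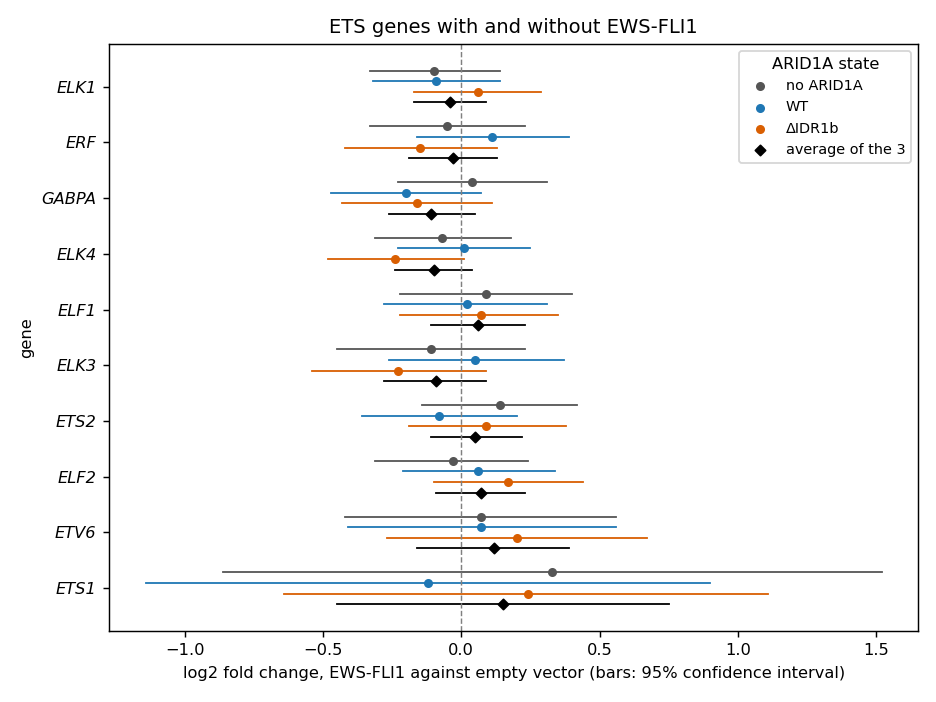
Log2 fold change of each ETS gene with EWS-FLI1 against empty vector, with 95% confidence intervals, for each ARID1A state (coloured circles) and their average (black diamonds). Every interval crosses 0, and the averages lie between -0.11 and 0.15.

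The second question was how the same genes differed between ARID1A states. Here 6 of the 10 passed the test in at least one of 6 comparisons, where 54.3% of all tested genes did, so the count by itself does not set the ETS genes apart. ELF1 and ELK3 were higher with both forms of ARID1A than without it, ETS1 was higher with ΔIDR1b, ELK4 was higher with WT, and ELK1 and ETS2 were lower with ΔIDR1b than with WT when the vector was empty. ELF2, GABPA, ERF and ETV6 passed in none. The comparisons with empty vector and with EWS-FLI1 use different libraries, so each state effect was measured in separate pairs of groups. Comparisons within a vector share groups and are not independent of each other.

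Many genes of all kinds moved with ARID1A state, and the count for the ETS genes has to be read against that. WT against no ARID1A called 3 of the 10, all higher, with empty vector, where 11.7% of all tested genes were called and 6.50% were called higher, and 3 of 10, all higher, with EWS-FLI1, where the shares were 18.1% and 9.72%. ΔIDR1b against no ARID1A called 3 of 10, all higher, in both vectors, against 33.3% and 35.9% of all genes called (16.4% and 18.1% higher). ΔIDR1b against WT called 1 higher and 3 lower with empty vector (24.5% of all genes, 11.1% higher and 13.4% lower), and 2 higher and 1 lower with EWS-FLI1 (18.6%, with 8.48% higher and 10.1% lower). In either direction, the share called among the ETS genes was near the background for ΔIDR1b against no ARID1A and above it in the other comparisons. The calls of ΔIDR1b against no ARID1A were all higher, and 3 of 10 lay above the 16.4% and 18.1% called higher. Each gene counts for 10.0 percentage points. For ΔIDR1b against no ARID1A, 25.4% and 27.4% of the longest 4076 tested genes (7911 bases or more) were called higher. The median exonic length of the 10 ETS genes was 5359.5 bases. The median log2 fold change of the 10 was 0.29 and 0.17 for WT against no ARID1A (empty vector and EWS-FLI1), 0.05 and 0.07 for ΔIDR1b against no ARID1A, and 0.06 and -0.16 for ΔIDR1b against WT, while that of all tested genes lay between -0.02 and 0.02.

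ELF1, an activator known from lymphoid and endothelial gene control, rose stepwise across the states. Without ARID1A it stood at 20.9 and 21.5 CPM with empty vector, and 24.2 and 20.8 with EWS-FLI1. With WT the libraries had 29.0 and 30.3, and 32.1 and 27.9. With ΔIDR1b they had 39.1 and 42.5, and 47.6 and 37.9. All 4 libraries of each state lay above all 4 of the state before it, with no overlap. ΔIDR1b exceeded no ARID1A by a log2 fold change of 0.95 (SE 0.15, adjusted p = 5.12e-06) with empty vector and 0.92 (SE 0.15, adjusted p = 7.03e-06) with EWS-FLI1. WT exceeded no ARID1A by 0.48 (SE 0.15, adjusted p = 0.0293) and 0.41 (SE 0.15, adjusted p = 0.0499). ΔIDR1b exceeded WT by 0.46 (SE 0.14, adjusted p = 0.0164) and 0.51 (SE 0.14, adjusted p = 0.0111). The 2 calls against no ARID1A in ΔIDR1b were kept under each of the 21 alternative analyses, whereas the call for WT with EWS-FLI1 was lost in 15 of them. The call for WT with empty vector was lost in 5, under upper-quartile scaling and without any one of its 4 libraries, with adjusted p up to 0.153. The calls of ΔIDR1b against WT were lost in 3 alternatives in each vector, with adjusted p up to 0.151 and 0.246.

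ETS1, an activator of immune, vascular and invasive gene programmes, was scarce and highest with ΔIDR1b. Its counts without ARID1A were 11 and 10 with empty vector, and 11 and 12 with EWS-FLI1. With ΔIDR1b they were 49 and 44, and 50 and 63. These correspond to 0.748 to 1.04 CPM in the former and 3.15 to 4.38 CPM in the latter, with no overlap. ΔIDR1b against no ARID1A gave a log2 fold change of 2.09 (SE 0.51, adjusted p = 0.00167) with empty vector and 1.99 (SE 0.50, adjusted p = 0.00190) with EWS-FLI1, and both calls were kept under each of the 21 alternatives. With WT the counts were 19 and 24 with empty vector but 8 and 31 with EWS-FLI1, so the last pair spans the values without ARID1A. WT did not pass against no ARID1A, at 1.03 (SE 0.54, adjusted p = 0.233) and 0.57 (SE 0.54, adjusted p = 0.511). ΔIDR1b exceeded WT by 1.42 (SE 0.46, adjusted p = 0.0298) with EWS-FLI1 and by 1.06 (SE 0.46, adjusted p = 0.0924) with empty vector. Without the first WT library with EWS-FLI1 the former was 0.75 with an adjusted p of 0.342, and without the second it was 2.70. That call was lost in 4 alternatives in all, including without either ΔIDR1b library with EWS-FLI1.

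ELK3, a ternary complex factor that represses until it is phosphorylated, was higher with either form of ARID1A. Without ARID1A it had 17.0 and 25.2 CPM with empty vector, and 19.5 and 19.6 with EWS-FLI1. With WT it had 32.9 and 31.7, and 36.8 and 30.2. With ΔIDR1b it had 35.7 and 34.8, and 32.2 and 28.2. All 8 libraries with introduced ARID1A lay above the 4 without it, and the WT and ΔIDR1b libraries overlapped. WT exceeded no ARID1A by a log2 fold change of 0.61 (SE 0.16, adjusted p = 0.0102) with empty vector and 0.78 (SE 0.16, adjusted p = 8.19e-04) with EWS-FLI1. ΔIDR1b exceeded no ARID1A by 0.74 (SE 0.16, adjusted p = 4.44e-04) and 0.62 (SE 0.16, adjusted p = 0.00277). ΔIDR1b against WT gave 0.13 (95% interval -0.19 to 0.44) and -0.15 (-0.47 to 0.16), with neither call passed. Both calls with EWS-FLI1 against no ARID1A were kept under each alternative. With empty vector, leaving out the first library without ARID1A, the lowest of all, reduced WT to 0.36 (adjusted p = 0.282) and ΔIDR1b to 0.48 (adjusted p = 0.0569), and the WT call was also lost without the first WT library.

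ELK4, the ternary complex factor also called SAP1, differed between the 2 forms of ARID1A. Without ARID1A it had 86.4 and 83.2 CPM with empty vector, and 83.1 and 78.8 with EWS-FLI1. With WT it had 108 and 118, and 127 and 101. With ΔIDR1b it had 76.0 and 91.1, and 75.6 and 66.2. All 4 WT libraries lay above the 8 others, while the ΔIDR1b libraries overlapped those without ARID1A with empty vector and lay below them with EWS-FLI1. WT exceeded no ARID1A by a log2 fold change of 0.42 (SE 0.12, adjusted p = 0.0191) with empty vector and 0.49 (SE 0.12, adjusted p = 0.00355) with EWS-FLI1. ΔIDR1b was below WT by -0.44 (SE 0.12, adjusted p = 0.00661) and -0.68 (SE 0.12, adjusted p = 1.19e-04). Against no ARID1A, ΔIDR1b gave -0.02 (95% interval -0.26 to 0.22) and -0.19 (-0.44 to 0.05), and neither passed. The last of these passed once the relation between gene length and fold change was removed (-0.33, adjusted p = 0.0222). The call for WT against no ARID1A with empty vector was lost without any one of its 4 libraries (adjusted p up to 0.160), and with EWS-FLI1 it was lost without the second library without ARID1A or the first WT library (adjusted p up to 0.0624). The call for ΔIDR1b against WT with EWS-FLI1 was kept under each alternative, and with empty vector it was lost without the second WT library (-0.37, adjusted p = 0.0863) or the first ΔIDR1b library (-0.31, adjusted p = 0.163).

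**Figure D3:**
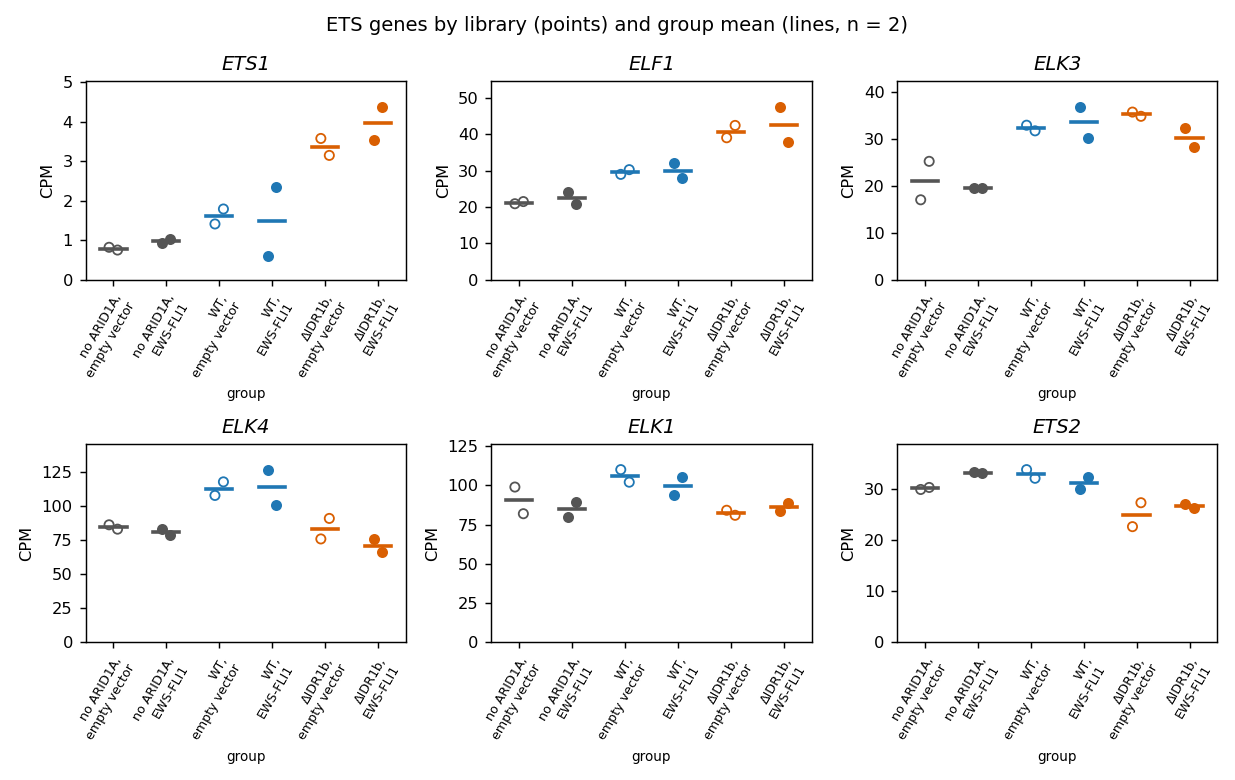
CPM of the 6 ETS genes called in at least one comparison of ARID1A states, by group, with 1 point per library and lines at group means (n = 2). The 4 ELK4 libraries with WT sit between 101 and 127, above all others, while ELF1 and ETS1 are highest in the 4 ΔIDR1b libraries.

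ELK1, the best-known ternary complex factor and a target of ERK, JNK and p38 kinases, was 22.2% lower with ΔIDR1b than with WT when no EWS-FLI1 was present. Group means were 90.4 ± 12.0 CPM without ARID1A, 106 ± 5.07 with WT and 82.5 ± 2.23 with ΔIDR1b (SD, n = 2). The log2 fold change against WT was -0.36 (SE 0.11, adjusted p = 0.0172), and the groups did not overlap. With EWS-FLI1 the means were 84.6 ± 6.76, 99.4 ± 7.97 and 86.1 ± 3.90, and the same comparison gave -0.21 (95% interval -0.44 to 0.02, adjusted p = 0.207). ELK1 did not pass against no ARID1A with either form of ARID1A, at 0.23 in both vectors for WT.

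ETS2, an activator closely related to ETS1, had its lowest levels where ETS1 had its highest. It stood at 30.2 ± 0.286 CPM without ARID1A, 33.0 ± 1.17 with WT and 25.0 ± 3.33 with ΔIDR1b in the empty-vector groups (SD, n = 2). With EWS-FLI1 the means were 33.3 ± 0.165, 31.3 ± 1.65 and 26.7 ± 0.640. The 4 ΔIDR1b libraries, from 22.7 to 27.4 CPM, lay below the 8 others, which began at 30.0. The test passed only for ΔIDR1b against WT with empty vector, at -0.40 (SE 0.14, adjusted p = 0.0340). With EWS-FLI1 that comparison gave -0.23 (SE 0.14, adjusted p = 0.270), and ΔIDR1b against no ARID1A gave -0.27 (adjusted p = 0.138) and -0.32 (adjusted p = 0.0757). The last passed with the length relation removed (-0.41, adjusted p = 0.0193). The lower calls of ELK1 and ETS2 with empty vector were both lost with upper-quartile scaling. That of ETS2 was also lost with no filter on low counts, and without either WT library or the first ΔIDR1b library. That of ELK1 was also lost without the first WT library or either ΔIDR1b library.

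The other 4 genes passed in no comparison. GABPA had group means from 67.2 to 88.6 CPM, highest with WT and empty vector, where its log2 fold change against no ARID1A was 0.35 (95% interval 0.08 to 0.62, adjusted p = 0.0830). That comparison did pass in 5 alternatives, among them the pairing of the repeats of each vector as a block. ERF had group means from 61.5 to 71.4 CPM, with fold changes between -0.17 and 0.08 in the state comparisons. ELF2, an activator related to ELF1, was the steadiest, from 34.6 to 46.4 CPM over the 12 libraries with fold changes between -0.11 and 0.14. ETV6 was measured with 80 to 162 counts per library, and its intervals reached from -0.56 to 0.87.

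**Figure D4:**
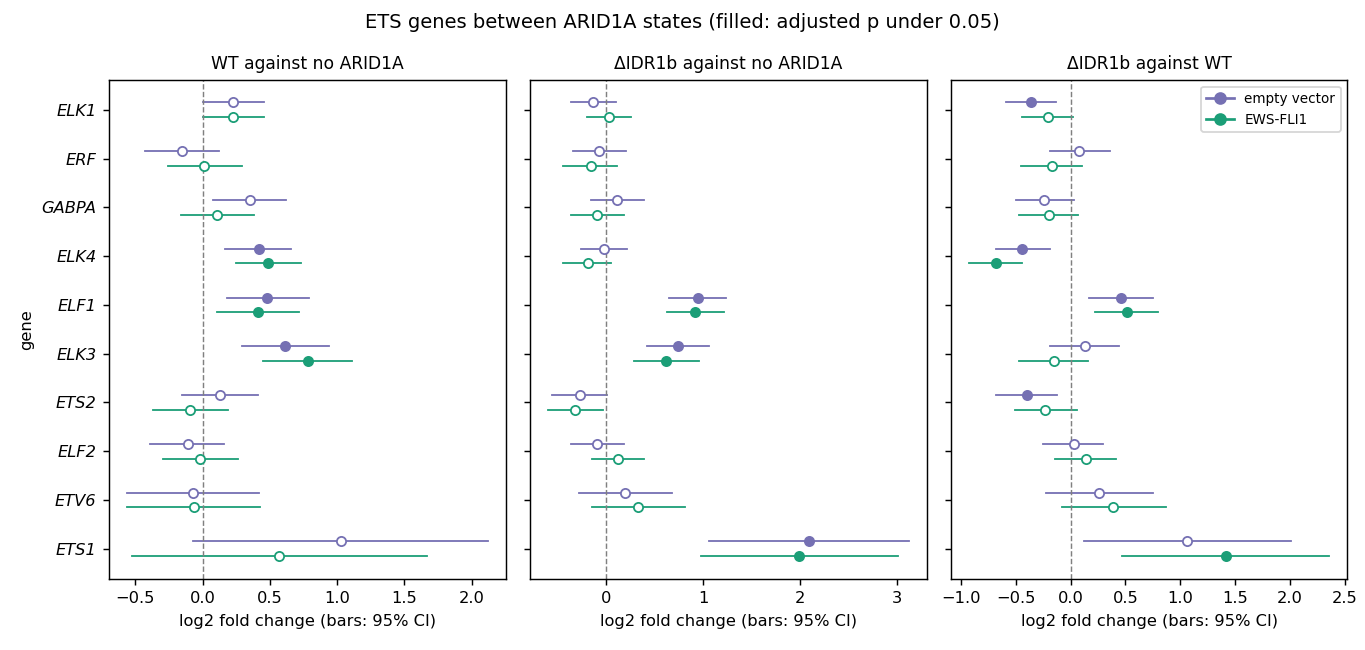
Log2 fold change of each ETS gene between ARID1A states with 95% confidence intervals, in purple with empty vector and in green with EWS-FLI1; filled points passed at an adjusted p under 0.05. ELF1 and ELK3 are filled in both vectors for WT and for ΔIDR1b against no ARID1A, ETS1 only for ΔIDR1b, and ELK4 turns from higher (WT) to lower (ΔIDR1b against WT).

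Over the 12 libraries the ETS genes did not follow one another as a group. Of 45 pairs, 22 had a Pearson r of log2 CPM above 0, and the median was -0.0561. The highest was ETS1 with ELF1 at 0.80, and the lowest was ETS2 with ELF1 at -0.68. All pairs share the 12 libraries and their scaling, so these values describe the pattern across the 6 groups. Among 12012 genes with a symbol and a mean of 5 CPM or more, the patterns most like that of ELF1 were those of NXPE3 (r = 0.988) and ZNF507 (0.979), and for ETS1 ANKRD11 (0.978) and SLC7A6 (0.971). Those most like ELK4 were DIS3 (0.981) and CHEK1 (0.963). For ELK3 they were RECQL (0.981) and GABPB1 (0.971), the latter encoding the partner subunit of GABPA. The other 6 had lower best values, from 0.784 for ELF2 to 0.945 for ELK1.

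Of 17 other ETS genes listed, 10 passed the filter on low counts. ELF4 (mean 14.1 CPM per kb) lay just above GABPA, ETV3 (10.8) just below it, and ETV4 (3.15) between ELF2 and ETV6, while the other 7 were below 1 CPM per kb. ERG, the closest relative of FLI1, had at most 4 counts in any library. ETV3, a repressor, was the only one of the 10 called with EWS-FLI1 on average (0.466% of all genes were). Its log2 fold change was 0.31 (SE 0.07, adjusted p = 0.0159). Its means with empty vector and EWS-FLI1 were 56.0 ± 3.93 and 69.5 ± 5.65 CPM without ARID1A, 70.8 ± 2.79 and 88.7 ± 4.82 with WT, and 67.9 ± 0.0993 and 82.6 ± 7.47 with ΔIDR1b. Between states, 3 of the 10 rose with WT against no ARID1A with empty vector and 5 with EWS-FLI1, and 3 and 4 rose with ΔIDR1b, with none called lower. In either direction, all tested genes were called at 11.7% and 18.1% in these comparisons for WT, below the share of the list, and at 33.3% and 35.9% for ΔIDR1b, near the 30.0% and 40.0% of the list. The shares of all genes called higher were 6.50% and 9.72% for WT and 16.4% and 18.1% for ΔIDR1b, below those of the list. Each gene of this list counts for 10.0 percentage points. ETV5, a PEA3 factor induced by ERK signalling, rose in all 4 of these comparisons, by 1.78 and 2.08 with WT and 1.95 and 2.57 with ΔIDR1b. Its relative ETV1 rose by 1.95 and 1.96, and 1.56 and 2.61, on only 5 to 56 counts per library. None of the 10 passed between ΔIDR1b and WT, where 24.5% (empty vector) and 18.6% (EWS-FLI1) of all genes did.

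Partners and regulators of ETS factors, 23 genes that all passed the filter, were not called with EWS-FLI1 on average (0 of 23, against 0.466% of all genes). With WT against no ARID1A, 3 rose and 2 fell with empty vector, and 9 rose and 1 fell with EWS-FLI1, which is 21.7% and 43.5% of the list against 11.7% and 18.1% of all genes called. SRF, the partner of the ternary complex factors, was highest with WT, as ELK4 was: it rose by 0.60 (SE 0.11, adjusted p = 2.09e-04) and 0.67 (SE 0.11, adjusted p = 3.14e-05) with WT, and with ΔIDR1b it was below WT by -0.43 (adjusted p = 0.00318) and -0.31 (adjusted p = 0.0363). Against no ARID1A, 9 of the 23 rose and 1 fell in ΔIDR1b with empty vector, and 11 rose and 1 fell with EWS-FLI1, 43.5% and 52.2% of the list against 33.3% and 35.9% of all genes. EP300, an acetyltransferase recruited by ETS1 and ELK1, rose by 1.06 and 1.10 there, and MRTFA, a coactivator of SRF that competes with ternary complex factors, by 0.99 and 0.82. GABPB1 rose by 0.51 and 0.55, while CDK10, a kinase that destabilises ETS2, fell by 0.70 and 0.88 on the log2 scale.

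A list of immediate-early targets stands closest to the ternary complex factors. Of 19 tested such genes controlled by SRF and ternary complex factors (SRF itself among them), 7 rose and 6 fell with WT against no ARID1A with empty vector, and 8 rose and 3 fell with EWS-FLI1. With ΔIDR1b against no ARID1A, 4 rose and 11 fell in both vectors. The shares called were 68.4% and 57.9% for WT (all genes 11.7% and 18.1%) and 78.9% in both vectors for ΔIDR1b (33.3% and 35.9%). FOS, the textbook target of ELK1, fell by 3.37 (SE 0.12, adjusted p = 7.82e-21) and 3.54 (SE 0.12, adjusted p = 3.36e-21), from 186 ± 6.97 to 18.0 ± 0.124 CPM with empty vector, while EGR1, another such target, rose by 1.47 and 1.50. With ΔIDR1b against WT, 1 rose and 12 fell with empty vector and 14 fell with EWS-FLI1, among them CCN1 by 2.18 and 2.09. The shares called were 68.4% and 73.7% of the list, against 24.5% and 18.6% of all genes (13.4% and 10.1% lower). Unlike the 10 ETS genes, this list held calls for EWS-FLI1: on average 4 rose and 5 fell, 47.4% of the list against 0.466% of all genes. The largest were KLF2 at 1.20 (SE 0.11) and IER2 at 0.80 (SE 0.09). This list, like the others, was chosen with earlier results of these data known, so its shares are descriptive and not an independent result.

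Of 17 nuclear genes of mitochondrial function known as targets of GABP, 0 were called with EWS-FLI1 on average, where 0.466% of all genes were. WT against no ARID1A called 1 higher with empty vector, and 2 higher and 1 lower with EWS-FLI1. These are 5.88% and 17.6% of the list, not above the 11.7% and 18.1% of all genes called. ΔIDR1b against no ARID1A called 14 lower with empty vector, and 1 higher and 10 lower with EWS-FLI1, with list medians of -0.44 and -0.36. That is 82.4% and 64.7% of the list called, against 33.3% and 35.9% of all genes. COX7B, a subunit of cytochrome c oxidase, fell by 1.12 (SE 0.16) and 0.93 (SE 0.16). Against WT, ΔIDR1b called 14 and 8 lower, while GABPA itself passed in neither. That is 82.4% and 47.1% of the list, where 13.4% and 10.1% of all genes were called lower. Gene length moved with these calls: the GABP targets had a median exonic length of 2238 bases against 5359.5 for the 10 ETS genes, and the shortest 4076 of the tested genes had median log2 fold changes of -0.46 and -0.51 for ΔIDR1b against no ARID1A. With the length relation removed, 8 and 7 of the 17 were called lower against no ARID1A, and 13 and 9 against WT. The share of all genes called lower in that fit is not given, so these counts lack a background. The part of length in these results beyond that was not tested.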

How the data were processed

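RNA-seq counts for 12 libraries were used, 2 in each of 6 groups set by the labels. The values are raw counts per gene name, deposited by the authors, made per the file headers with featureCounts 2.0.1 on paired reads over GENCODE 41 exons (GRCh38 patch 13) with no strand option. STAR, SAMtools and edgeR are named in the submitters' processing notes, with versions not given in the sources used here. Duplicate marking appears in the file names of the header, and the counting command does not exclude duplicates.

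Here, edgeR 4.0.16 (R 4.3.3) fitted all 12 libraries with 1 mean per group, TMM scaling and filterByExpr (minimum count 10), which left 20377 genes holding 99.79% to 99.87% of counts. Quasi-likelihood tests of 13 contrasts were adjusted by Benjamini-Hochberg over all tested genes, with a threshold of 0.05. Log2 fold changes and their standard errors come from that fit. Levels are CPM, divided by exonic kilobases where genes are compared. The common biological coefficient of variation was 10.1%. The fit was tested on simulated data. Repeats differed by more than sampling noise in each group (chi-square per degree of freedom 3.02 or more), so none was counted as a duplicate.

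The ETS genes and gene lists were chosen with earlier results of these data known. All 10 ETS genes are named, with library values for those called between states in both vectors, and from each list mostly the called genes of at least 1 CPM with the largest changes. Libraries with the same repeat number deviated together within a vector but not between vectors. Correlations over 10695 genes were 0.104 to 0.194 with empty vector, 0.153 to 0.412 with EWS-FLI1 and -0.223 to -0.00785 between vectors. The labels do not say what a repeat number shares, so the main fit has no block and its comparisons of states leave this pairing out. A block within each vector called 17.7% of all genes for WT against no ARID1A with empty vector, in place of 11.7%. Alternatives were DESeq2 1.42.0, other scaling, no filter, blocks, only the groups compared, each library left out, and 2 added after seeing the data that remove a trend of fold change with gene length. A list of blood markers is not reported here.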

Additional observations from a re-analysis of the deposited data

How the results depend on the processing

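Of 19 calls of single ETS genes, 7 were kept under each of the 21 alternatives: ELK3 with EWS-FLI1 for WT against no ARID1A, ETS1 and ELF1 for ΔIDR1b against no ARID1A in both vectors, ELK3 for that comparison with EWS-FLI1, and ELK4 for ΔIDR1b against WT with EWS-FLI1. With the length trend removed, ΔIDR1b against no ARID1A with EWS-FLI1 called 5 ETS genes in place of 3, with ELK4 and ETS2 added as lower, and it called 5 as well with the block within each vector and the trend removed together. The share of all genes called in those fits is not given, so these counts lack a background. ΔIDR1b against WT called 2 in place of 4 with empty vector under upper-quartile scaling, where 24.4% of all genes were called in place of 24.5%. It called 1 in place of 3 with EWS-FLI1 when only the libraries compared were fitted, where 8.97% of all genes were called in place of 18.6%.

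Leaving out 1 library in turn left 1 group with a single library, so the number of calls in each such fit is not given. Without either library of no ARID1A and empty vector, fewer genes of all kinds passed against that group, for WT and for ΔIDR1b. Over the 21 alternatives, the fold changes called for WT against no ARID1A with empty vector kept their sign. They ran from 0.35 to 0.48 for ELK4, 0.36 to 0.92 for ELK3 and 0.42 to 0.52 for ELF1. A group left with 1 library is assumed to vary like the others. None of the 19 calls changed direction under any alternative. Of the 111 uncalled results of the 10 genes, 59 did in at least 1 alternative, 52 of them only when a library was left out, and none passed the test in the new direction. The largest of these was ETS1 in the EWS-FLI1 libraries of WT and of no ARID1A, at 0.57 and between -0.70 and 1.25 over the alternatives. Among uncalled results that passed in some alternative, GABPA turned to -0.18 (range over libraries left out -0.18 to 0.36) for WT against no ARID1A and 0.09 (-0.45 to 0.09) for ΔIDR1b against WT without the first library of WT and EWS-FLI1, and to 0.05 (-0.49 to 0.05) for EWS-FLI1 in WT cells without the second. ERF turned to 0.07 (-0.39 to 0.07) for ΔIDR1b against WT without the second. The causes were not tested.

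With the replicate block within each vector, the counts of calls stayed at 3, 3, 4 and 3 for ΔIDR1b against no ARID1A and against WT, with empty vector and EWS-FLI1 in turn, and at 0 for each EWS-FLI1 comparison and interaction. The shares of all genes called in the former rose from 33.3%, 35.9%, 24.5% and 18.6% to 37.6%, 40.0%, 30.0% and 24.8%. In the EWS-FLI1 comparisons and interactions they were at most 1.14%. GABPA alone was added, making 4 in place of 3 for WT against no ARID1A with empty vector, where 17.7% of all genes were called in place of 11.7%. A block shared by both vectors gave 3 for that comparison. ETS1, with 8 to 63 counts per library, is the gene most limited by depth. Intervals cover the spread between libraries, and reads without molecular identifiers are not independent molecules.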
